A study of Homo sapiens with 42 samples.

Results

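The 42 interferon-stimulated genes examined here were chosen by symbol from a list of classical interferon targets, and each had 1 row among the 58869 genes of the count table. Polyadenylated RNA was sequenced from 42 libraries of 2 human acute myeloid leukaemia cell lines, OCI-AML3, whose genotype is labelled NPM1c+ (mutant NPM1), and NOMO1, labelled as KMT2A-rearranged. Each line gave 7 groups of 3 libraries: the solvent DMSO at day 3 and day 6, VTP-50469 (100 nM) at day 3 and day 6, selumetinib (100 nM), and both drugs combined at day 3 and day 6. The protocol names the compound VTP-50469 and the sample titles spell it VTP-50649; the first is used here. VTP-50469 blocks menin, the adaptor that holds KMT2A at its target genes, and selumetinib blocks MEK, the kinase that activates ERK. No group carries an added allele or transgene, and each genotype is represented by 1 line. Selumetinib alone is described as a treatment of 1 day, but 2 of its 3 replicates in each line have titles that give day 3; it is set beside DMSO of day 3, since no DMSO group of 1 day is labelled. The deposited counts also hold a copy of an OCI-AML3 selumetinib library under a name that gives day 6, so the duration is uncertain. How long selumetinib lasted in the combination is not stated. Whether replicates were separate cultures is not labelled, so p-values measure the spread between these libraries, which may be technical.

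Type I interferons are secreted signals that bind a receptor of the chains IFNAR1 and IFNAR2. The receptor's kinases JAK1 and TYK2 then activate transcription factors that bind the interferon-stimulated response element (ISRE) in promoters. The genes switched on this way encode proteins that bind viral RNA, hold virions at the membrane, attach the ubiquitin-like protein ISG15 to other proteins, or call in other cells. IRF7 and IRF9 are interferon targets themselves, and USP18 and SOCS1 dampen the receptor.

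The promoter windows below are shown because they hold the letters of the element through which interferon-stimulated genes are known to respond. The ISRE core was searched on both strands as GAAA, 2 bases of any kind, GAAA, within 250 bases before to 50 bases after a start in RefSeq (GRCh38.p14). It was found in 27 of the 34 members that the promoter table holds (79.4%), and in 1195 of all 27305 genes of that table (4.38%). The GAS core (TTC, 3 bases of any kind, GAA), the element of interferon gamma, was found in 9 of the 34 (26.5%) against 9.38% of all genes. These are matches of letters in 1 window and not measured binding. Counted by window, the ISRE core was in 31 of the members' 45 windows (68.9%) and in 3.57% of all 35116. The 8 windows are each written 5′ to 3′ on the strand of the gene, and capitals mark the ISRE core in either direction, where neighbouring cores may overlap.
BST2, chr19:17405720-17405779, minus strand: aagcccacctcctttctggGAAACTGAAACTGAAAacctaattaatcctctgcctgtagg
IFITM1, chr11:313975-314034, plus strand: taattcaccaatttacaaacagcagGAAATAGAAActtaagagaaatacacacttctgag
IFITM3, chr11:320861-320920, minus strand: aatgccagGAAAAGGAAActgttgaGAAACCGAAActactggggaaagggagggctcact
ISG15, chr1:1013365-1013424, plus strand: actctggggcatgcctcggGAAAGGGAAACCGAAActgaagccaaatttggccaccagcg
MX1, chr21:41431829-41431888, plus strand: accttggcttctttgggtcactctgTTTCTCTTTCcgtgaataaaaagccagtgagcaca
IFIT1, chr10:89392495-89392554, plus strand: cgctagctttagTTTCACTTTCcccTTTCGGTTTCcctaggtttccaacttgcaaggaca
IFIT3, chr10:89327850-89327909, plus strand: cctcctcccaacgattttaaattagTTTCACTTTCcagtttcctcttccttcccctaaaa
RSAD2, chr2:6877607-6877666, plus strand: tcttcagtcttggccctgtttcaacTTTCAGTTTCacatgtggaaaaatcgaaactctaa
Members also sit side by side in the genome (GENCODE 29, GRCh38). IFIT2, IFIT3, IFIT1 and IFIT5 lie within chr10:89283694-89421001, IFITM1, IFITM2 and IFITM3 within chr11:307631-327537, OAS1, OAS2 and OAS3 within chr12:112906777-113011723, and MX1 and MX2 within chr21:41361943-41459214.

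OCI-AML3 libraries held 15561248 to 24262960 counts and NOMO1 libraries 15264862 to 29168628. Values below are in CPM, counts relative to a library's total after scaling by the trimmed mean of M values. Genes were tested with the quasi-likelihood test of edgeR, with all 7 groups of a line in 1 fit, and a gene is said to rise or fall where its Benjamini-Hochberg adjusted p, over all genes tested, was under 0.05. Fold changes are log2 values with a standard error (SE). The SE was worked back from the test, as the size of the log2 value over the square root of its F statistic. It is thus approximate and not the fitted error of the coefficient. Comparisons of a line share their DMSO controls and are not independent. The blood-cell genes PTPRC, SPI1, CEBPA, CD33, LYZ and ANPEP were present in OCI-AML3. Group means there were under 1 CPM for CD34, KIT and CD68 and at most 2.49 for MPO. The globins of the erythroid list and CD3D, CD3E and CD3G had means of at most 0.12 CPM, but NCAM1, of the T and NK cell list, had 130 to 265. In NOMO1, group means ran from 2790 to 13200 CPM for MPO, 108 to 179 for NKG7, 4.56 to 37.7 for CD3D and 24.5 to 285 for KRT8. As the libraries are of bulk RNA, more cells that express a gene and more RNA per cell cannot be told apart. A library of each line stood apart from its partners by a chi-square of counts per gene: OCI-AML3 VTP-50469 day 3 replicate 2 (31.9 and 30.7, against 4.32 between its partners) and NOMO1 VTP-50469 day 3 replicate 1 (67.1 and 72.4, against 6.39). Comparisons that use either group are given with and without that library. All groups of a line share 1 estimate of the spread, so each library also bears on the line's other tests. Those were not refitted without it, apart from fits on the compared groups only. In NOMO1, DMSO of day 3 held 17.8% mitochondrial counts and DMSO of day 6 held 3.17%, and this control bears on the day 3 results of that line.

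At day 6 in OCI-AML3 the interferon-stimulated genes rose together with VTP-50469 and rose less with the combination. Their summed level was 692 ± 13.5 CPM in DMSO day 6 (SD, n = 3), 8770 ± 322 with VTP-50469 at day 6 and 3390 ± 318 with the combination at day 6. In NOMO1 the sums were 664 ± 20.2, 708 ± 16.3 and 664 ± 14.8 CPM in the same groups. The libraries of the 3 day 6 groups of OCI-AML3 did not overlap in this sum, whereas those of NOMO1 ran from 649 to 726 CPM. At day 3 the OCI-AML3 sums were 718 ± 10.4 CPM in DMSO libraries, 838 ± 32.4 with selumetinib alone and 1400 ± 27.3 with the combination. VTP-50469 at day 3 gave 1650 ± 945 CPM, a mean that rests on 1 library at 2740 beside 1070 and 1140. BST2, IFI6 and IFITM2 had the 3 highest mean CPM over all 42 libraries. Without them the day 6 sums in OCI-AML3 averaged 397 CPM in DMSO, 6900 with VTP-50469 and 2450 with the combination.

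**Figure D1:**
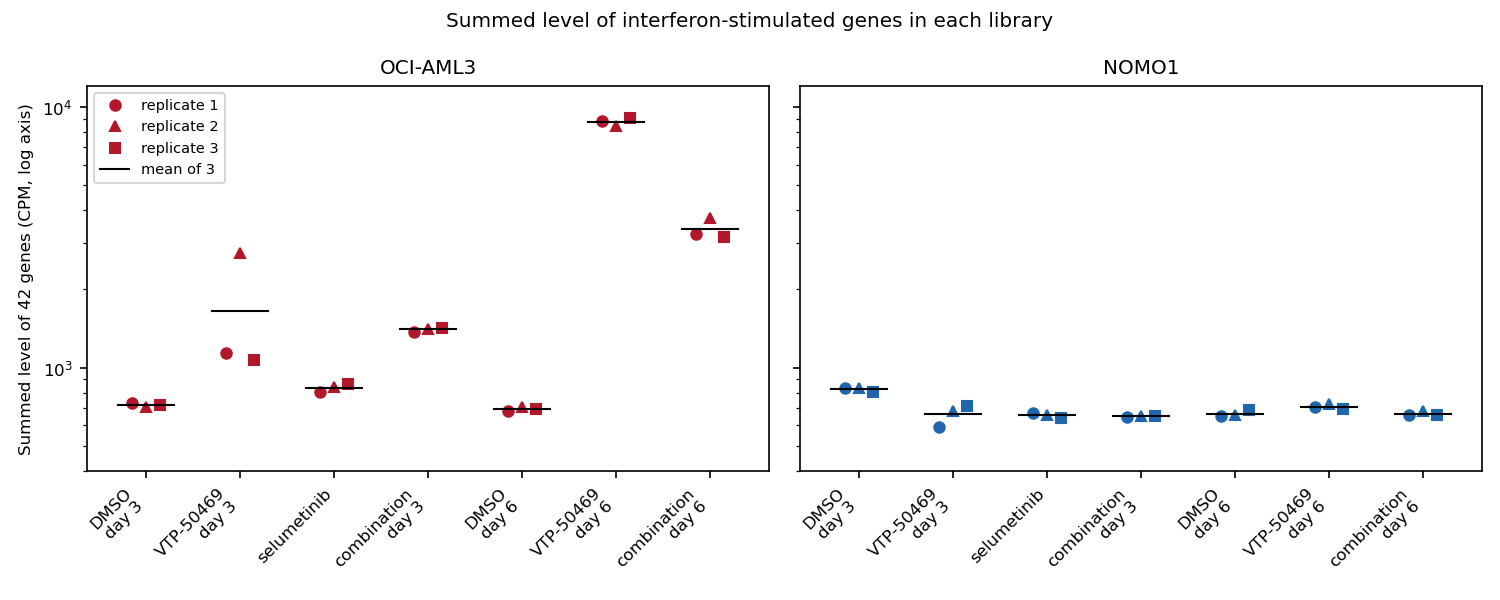
Summed level of the 42 interferon-stimulated genes (CPM, log axis) in each library, OCI-AML3 on the left and NOMO1 on the right; symbols are replicates and lines the mean of 3. OCI-AML3 reached a mean of 8770 CPM with VTP-50469 at day 6 and 3390 CPM with the combination, while NOMO1 group means stayed between 650 and 827 CPM.

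With VTP-50469 at day 6 in OCI-AML3, all 41 members that passed the filter on low counts rose and none fell, where 18.8% of all genes tested rose (edgeR). Their median log2 fold change was 5.01, or 4.60 over the 38 members with more than 3 counts in each group, and that of all genes tested lay between -0.07 and 0.07 in every comparison. In 42 of 42 members every VTP-50469 library lay above every DMSO library of day 6, as did 27.1% of all genes tested. ZBP1, a sensor of left-handed nucleic acid, was the member not tested, with 28 counts under VTP-50469 and 0 in DMSO, at least 8.76-fold higher by the floor of 3 counts over a group. The genes for antiviral RNA-binding proteins and enzymes had a median of 6.86 (13 tested), the GTPases GBP1, MX1 and MX2 6.38, the 5 genes of ISG15 conjugation 4.38, the 4 membrane restriction factors 3.95, the 2 antiviral nucleotide enzymes 3.96, and the 3 genes of ADP-ribosylation 3.55. The 9 other members had a median of 7.04, and the secreted proteins CXCL10 and LGALS3BP rose by 8.20 and 6.39. CXCL10 had no count in DMSO, so its fitted value is no measured size; by counts (108 against 0) it was at least 33.8-fold higher.

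**Figure D2:**
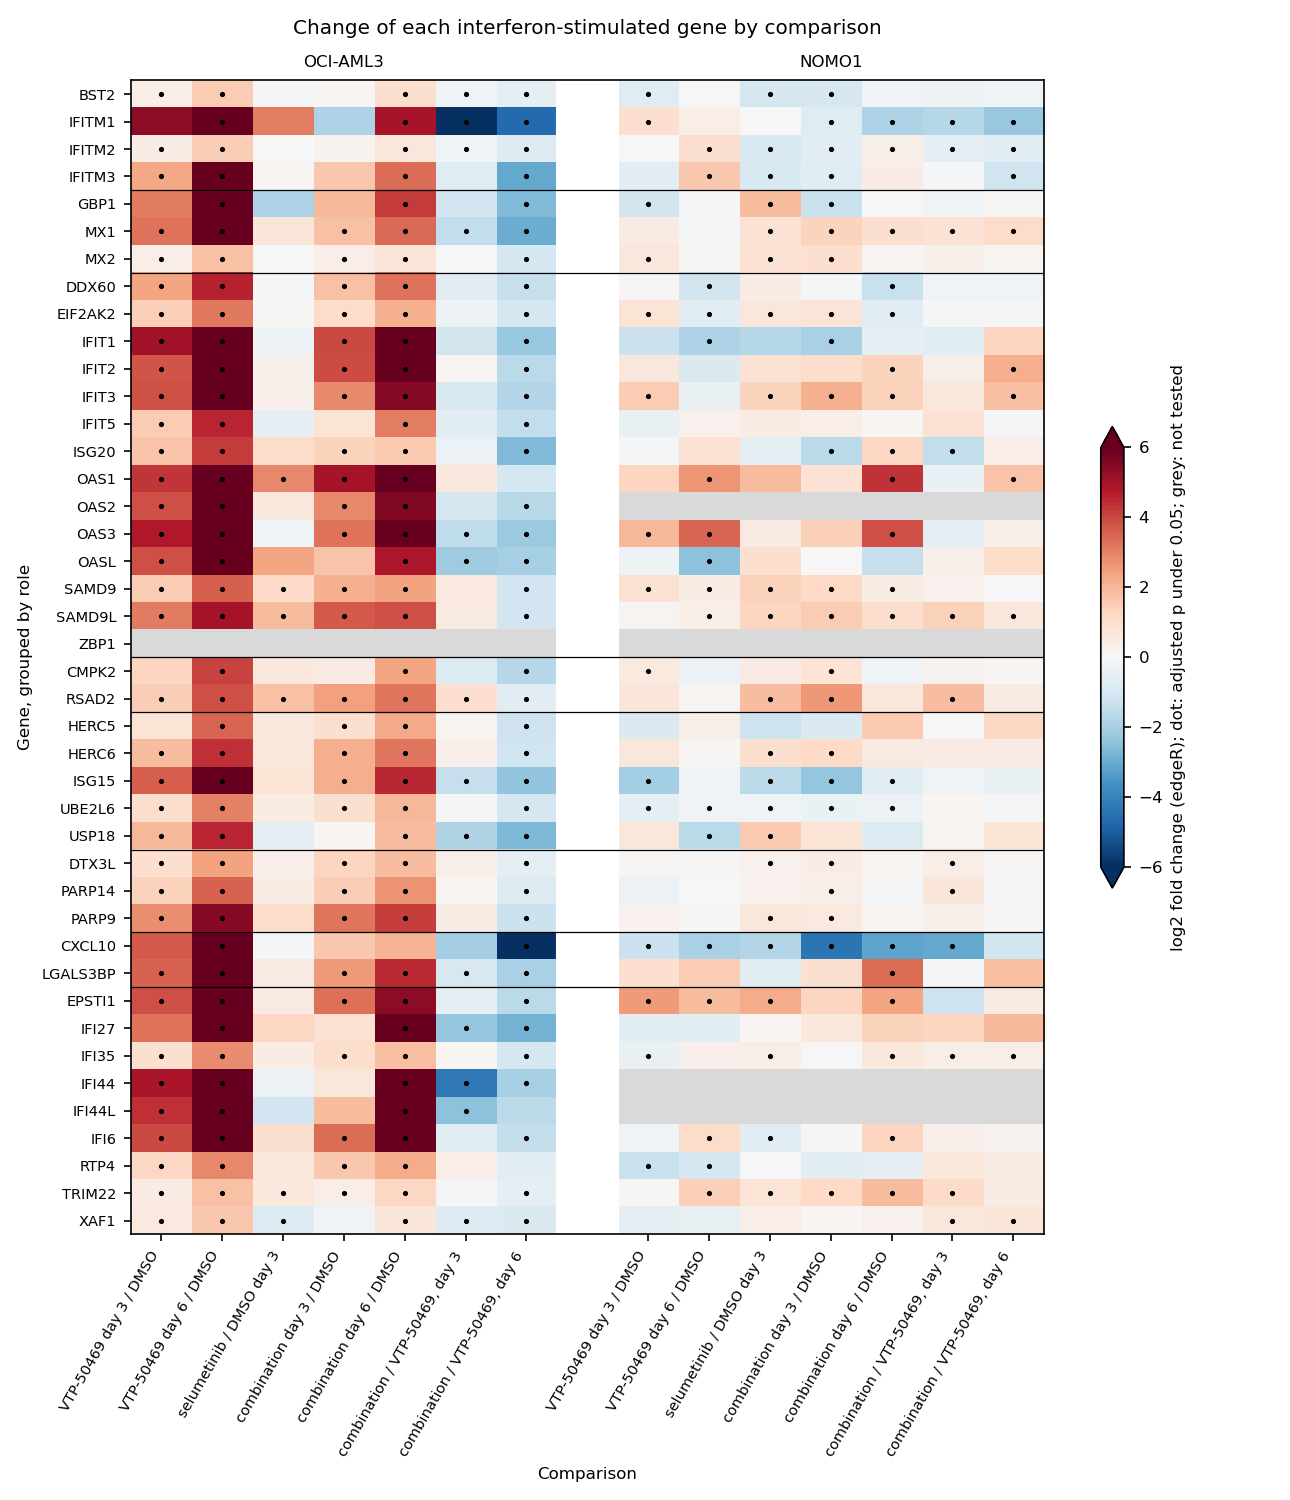
Log2 fold change (edgeR) of each interferon-stimulated gene in 7 comparisons per line, red for higher and blue for lower, with genes grouped by role, dots for an adjusted p under 0.05 and grey for genes not tested; colours saturate at 6. The column of VTP-50469 at day 6 in OCI-AML3 is red with a dot in all 41 tested genes, that of the combination against VTP-50469 at day 6 is blue with a dot in 38, and NOMO1 columns hold both colours.

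The membrane restriction factors rose by 1.47 to 9.60 on the log2 scale, the widest span of the role groups. IFITM1, which blocks entry of viruses at the cell surface, was at 0, 0 and 0.165 CPM in DMSO day 6, at 51.1, 45.7 and 52.1 with VTP-50469 and at 0.72, 4.18 and 1.01 with the combination. Its counts rose from 3 to 2792, a ratio of 874 with an exact 95% interval of 299 to 4240. IFITM3, which acts in endosomes, went from 1.83, 1.9 and 2.19 CPM in DMSO to 173, 156 and 172 with VTP-50469 (log2 fold change 6.39, SE 0.63, edgeR adjusted p 1.08e-06) and was at 23, 24.6 and 12.3 with the combination. Both genes were under 3 CPM in every DMSO library of day 6. BST2, or tetherin, which holds budding virions, was already at 202, 222 and 207 CPM in DMSO libraries and stood at 583, 613 and 589 with VTP-50469, a log2 rise of 1.5 (SE 0.07). The combination gave 429, 398 and 417 CPM of BST2. IFITM2 was at 72, 85.6 and 83.7 CPM in DMSO libraries, 229, 214 and 226 with VTP-50469 (log2 rise 1.47, SE 0.09) and 131, 133 and 124 with the combination. IFITM1 and IFITM2 share exons in the annotation (32.5% of IFITM1's exonic bases) and are alike in sequence, so reads may have been split between them, and IFITM3 overlaps a gene on the other strand (21.3%).

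The RNA-binding proteins and enzymes rose by 3.15 to 9.11 on the log2 scale. IFIT1, which binds viral RNA ends, was at 0.354, 0.576 and 0.165 CPM in DMSO day 6, 199, 190 and 222 with VTP-50469 and 41, 53.6 and 32.5 with the combination; its log2 rise with VTP-50469 was 9.11 (SE 1.03). IFIT3, a partner of IFIT1, was at 1.53, 1.9 and 0.823 CPM in DMSO libraries, 212, 200 and 227 with VTP-50469 and 60.4, 74.9 and 51.8 with the combination. No combination library of either gene overlapped the other groups. OAS1, which makes the messenger that activates the RNase L nuclease, was at 0.944, 0.461 and 0.877 CPM in DMSO libraries, 229, 227 and 234 with VTP-50469 (log2 rise 8.22, SE 0.85) and 100, 121 and 109 with the combination. OASL, a relative of OAS1 that lacks this activity, was at 0.413, 0.0576 and 0.384 CPM in DMSO libraries, 32.7, 32.7 and 36.6 with VTP-50469 and 9.88, 6.75 and 8.98 with the combination. The 3 groups of each gene stayed apart. EIF2AK2, the kinase PKR that halts translation on binding double-stranded RNA, started at 35.3, 34.5 and 33 CPM, stood at 298, 300 and 313 with VTP-50469 (log2 rise 3.15, SE 0.24) and at 140, 154 and 149 with the combination. ISG20, an RNA exonuclease, was at 0.472, 0.461 and 0.823 CPM in DMSO libraries, 11.1, 10.1 and 11.6 with VTP-50469 and 0.851, 1.54 and 2.84 with the combination.

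Among the GTPases, MX1, which traps viral nucleocapsids, was at 0.944, 0.576 and 0.658 CPM in DMSO day 6, 60, 57.3 and 65.1 with VTP-50469 (log2 rise 6.38, SE 0.49) and 5.76, 10.7 and 6.95 with the combination. Its neighbour MX2, a nuclear-pore restriction factor, was at 82, 78.2 and 78.5 CPM in DMSO libraries, 273, 275 and 274 with VTP-50469 (log2 rise 1.78, SE 0.10) and 127, 148 and 126 with the combination. In neither gene did the 3 groups overlap. RSAD2, or viperin, which makes a chain-terminating nucleotide, was at 2.6, 3.51 and 3.51 CPM in DMSO libraries, 46.9, 43.1 and 49.3 with VTP-50469 (log2 rise 3.85, SE 0.29) and 27.2, 29.3 and 32.7 with the combination.

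**Figure D3:**
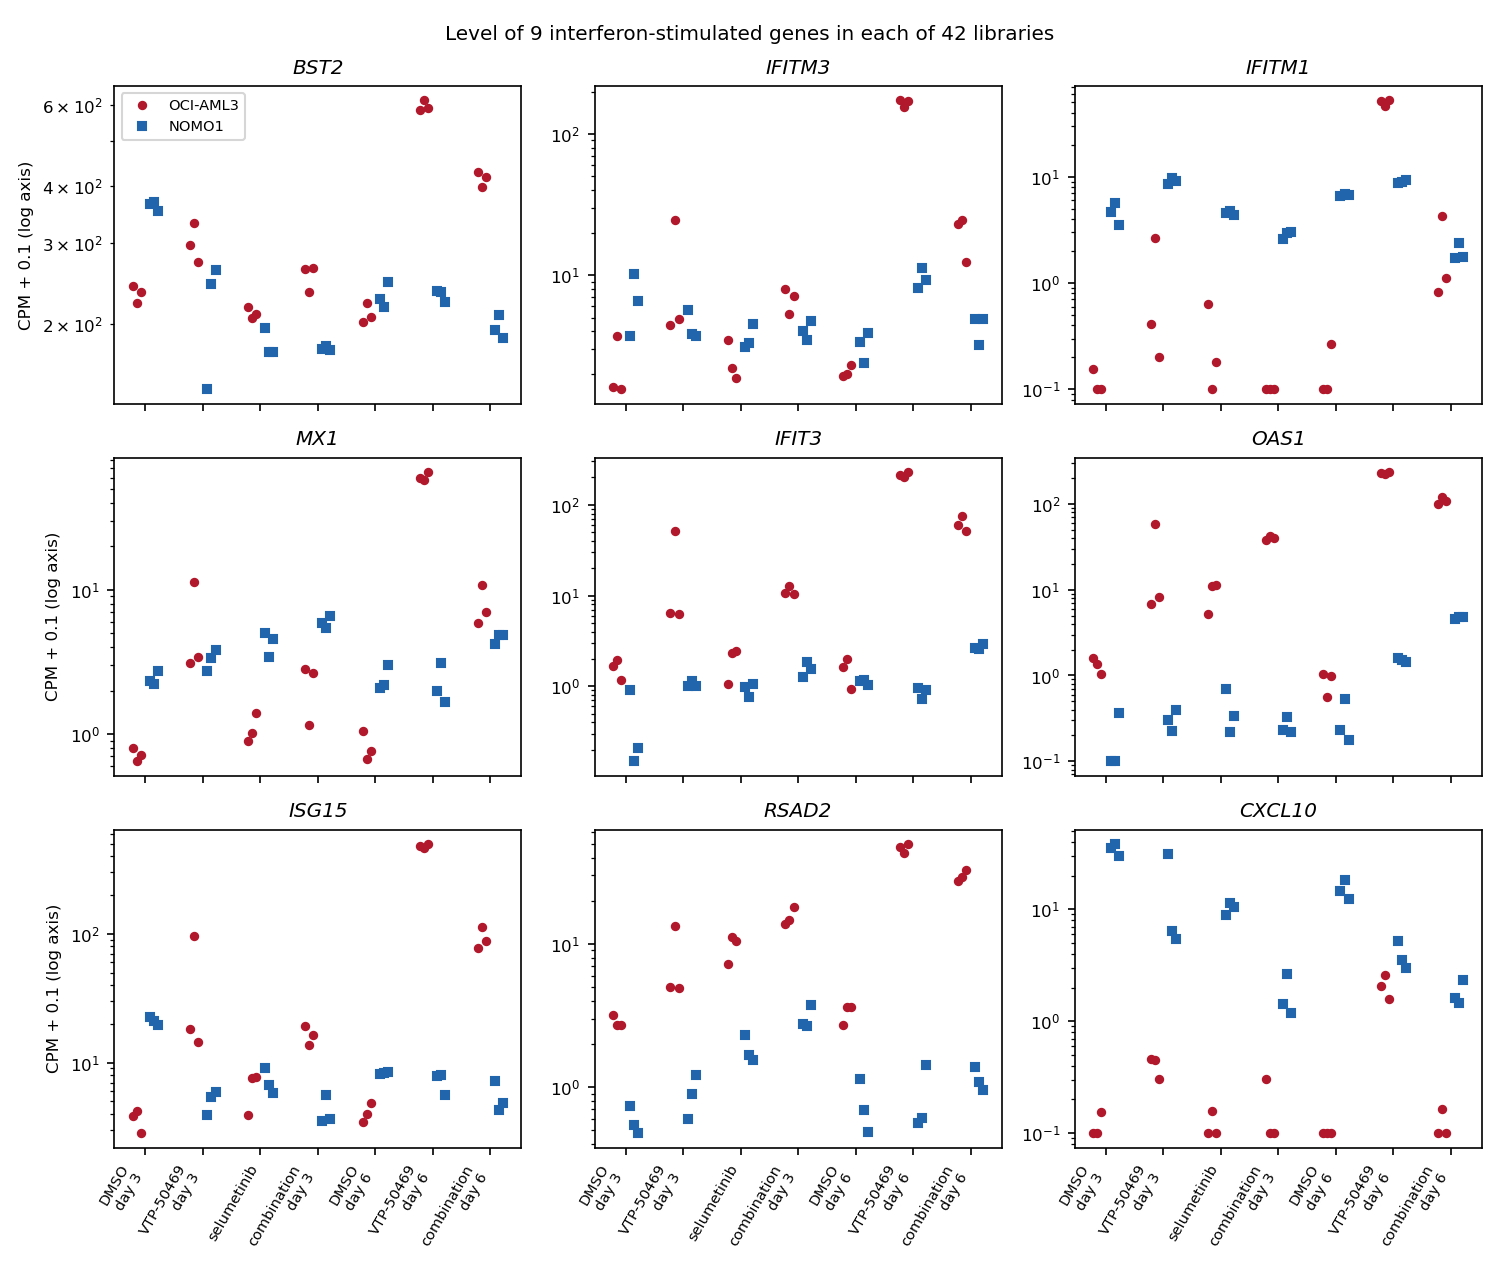
Level of 9 interferon-stimulated genes (CPM plus 0.1, log axis) in each library by group, with circles for OCI-AML3 and squares for NOMO1. In OCI-AML3, VTP-50469 at day 6 is the highest group in each panel, from 1.98, 2.47 and 1.49 CPM of CXCL10 to 583, 613 and 589 CPM of BST2.

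The 5 genes of ISG15 conjugation rose together. ISG15 itself was at 3.36, 3.92 and 4.77 CPM in DMSO day 6, 477, 461 and 495 with VTP-50469 (log2 rise 6.89, SE 0.66) and 77.5, 113 and 87.9 with the combination. UBE2L6, the enzyme that conjugates it, was at 26.4, 28.1 and 28.8 CPM in DMSO libraries, 226, 233 and 228 with VTP-50469 (log2 rise 3.04, SE 0.22) and 113, 125 and 90.8 with the combination. USP18, which removes it and dampens the receptor, was at 3.89, 3.28 and 5.05 CPM in DMSO libraries, 96.7, 89.7 and 103 with VTP-50469 (log2 rise 4.56, SE 0.54) and 7.85, 20.4 and 15.8 with the combination. The modifier, its enzyme and its protease thus all lay highest with VTP-50469 alone, and no library of the combination reached that group. CXCL10, a chemokine that attracts T cells, was at 1.98, 2.47 and 1.49 CPM with VTP-50469 and at 0, 0.0643 and 0 with the combination. LGALS3BP, a secreted galectin-binding glycoprotein, was at 5.07, 6.05 and 7.51 CPM in DMSO libraries, 535, 494 and 541 with VTP-50469 (log2 rise 6.39, SE 0.45) and 128, 163 and 122 with the combination.

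Of the remaining members, IFI6, a mitochondrial and endoplasmic reticulum protein that limits cell death, was at 2.66, 6.28 and 5.59 CPM in DMSO day 6, 1050, 1040 and 1060 with VTP-50469 (log2 rise 7.75, SE 0.74) and 345, 433 and 395 with the combination. Per length, IFI6 was the highest member with VTP-50469 at day 6, at a mean of 4150 TPM (a level per length, from the exons of GENCODE 29), ahead of BST2 at 1820 and ISG15 at 1740, whereas in DMSO day 6 the order was led by BST2 at 658 and IFITM2 at 183 TPM. The order of the members thus differed between these groups. IFI27, an interferon target of mitochondria, was at 0.118, 0.23 and 0.0548 CPM in DMSO libraries, 98.5, 93.3 and 95.7 with VTP-50469 (log2 rise 9.42, SE 0.92) and 11.2, 17.4 and 11.8 with the combination. IFI44L was at 0.236, 0.173 and 0.329 CPM in DMSO libraries, 125, 118 and 126 with VTP-50469 (log2 rise 8.92, SE 1.06) and 33.6, 58.6 and 33.9 with the combination. XAF1, which antagonises the apoptosis inhibitor XIAP, was at 18.7, 19.1 and 20.4 CPM in DMSO libraries, 57.1, 62 and 60.7 with VTP-50469 (log2 rise 1.63, SE 0.15) and 29.2, 32.9 and 34.8 with the combination. XAF1 shares 38.3% of its exonic bases with a gene on the other strand, whose reads could not be told apart. The 5 smallest rises with VTP-50469 were those of IFITM2, BST2, XAF1, TRIM22 (1.77) and MX2, which had DMSO means of 80.5, 210, 19.4, 55.8 and 79.5 CPM. The largest were those of IFITM1, IFI27, IFIT1 and IFI44L.

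The 27 members with an ISRE core had a median log2 rise of 6.39 with VTP-50469 at day 6 (1.5 to 9.60), and the 7 without one in their windows had 4.06 (1.63 to 8.22). For the combination against VTP-50469 alone the medians were -1.64 and -1.06. The ranges overlap in both comparisons. Over the 21 OCI-AML3 libraries, the log2(CPM + 1) of a member correlated with the median of the other members at a median Pearson r of 0.9645, lowest 0.76 for ZBP1 and highest 0.994. ZBP1, CXCL10, GBP1, XAF1 and ISG20 were the least alike. The libraries share depth and group, so these values describe and test nothing.

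At day 6 the combination held OCI-AML3 between the other groups. Against DMSO, 40 of 41 members rose and none fell (23.1% of all genes tested rose), with a median log2 fold change of 3.27; the gene not past the test was CXCL10 (1 count against 0). The largest rises were those of IFI44L (7.37, SE 1.09), IFIT2 (7.21, SE 1.01), OAS1 (7.16, SE 0.85) and IFIT1 (6.84, SE 1.06). Against VTP-50469 alone, 38 of 41 fell and none rose (24.6% of all genes tested fell), with a median of -1.46. In 42 of 42 members every combination library lay below every VTP-50469 library, as did 27.2% of all genes tested. CXCL10 fell furthest, with 1 count against 108 and a ratio of 0.0111 (exact 95% interval 0.000279 to 0.0632), followed by IFITM1 (-4.65, SE 0.78, edgeR adjusted p 0.000319), IFITM3 (-3.06, SE 0.49) and MX1 (-2.96, SE 0.38). IFI44L (-1.55), OAS1 (-1.06) and RTP4 (-0.66) did not pass, with edgeR adjusted p of 0.056, 0.116 and 0.0617. With only the compared groups fitted, OAS1 (-1.01) and RTP4 (-0.60) passed. IFI44L passed in 2 alternatives, among them the replicate block. Taking the rise from DMSO to VTP-50469 in mean CPM as 100%, the combination showed a median of 32.1% of it over the 42 members. The share ran from 1.08% for CXCL10 and 3.86% for IFITM1, through 11.8% for MX1 and 18.8% for ISG15, to 61.3% for RSAD2 and 61.4% for DTX3L, the E3 ligase partner of PARP9. The combination also held more mitochondrial counts, 12.3 ± 2.27% against 4.41 ± 0.585% with VTP-50469 alone (SD, n = 3); with mitochondrial genes removed, 38 of 41 members passed.

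At day 3 in OCI-AML3, VTP-50469 gave smaller and less even rises, and much of their size came from 1 library. Of 41 members 35 rose and none fell, where 6.49% of all genes tested rose, with a median log2 fold change of 2.37. The largest rises were those of IFIT1 (5.04, SE 1.09), IFI44 (4.92, SE 1.27), OAS3 (4.8, SE 0.73) and IFI44L (4.36, SE 1.19). In replicate 2, IFIT1 was at 36.6 CPM beside 4.07 and 1.89 in replicates 1 and 3, with DMSO at 0.324, 0.299 and 0.669. ISG15 was at 96.5 CPM in replicate 2 beside 18 and 14.4, and OAS1 at 58.6 beside 6.8 and 8.12. Replicate 2 was the highest of the group in 40 of 42 members, at a median of 3.59 times the mean of its partners (41 members). How often it was highest over all genes was not counted, and this library stood apart over all genes too. It lay below every VTP-50469 library of day 6 in 42 of 42 members, as it did in 30.5% of all genes tested. BST2 differed least among these examples, at 332 CPM in replicate 2 and 297 and 272 in its partners. Both partners lay above every DMSO library of day 3 in 37 of 42 members and in 21.4% of all genes tested.

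**Figure D4:**
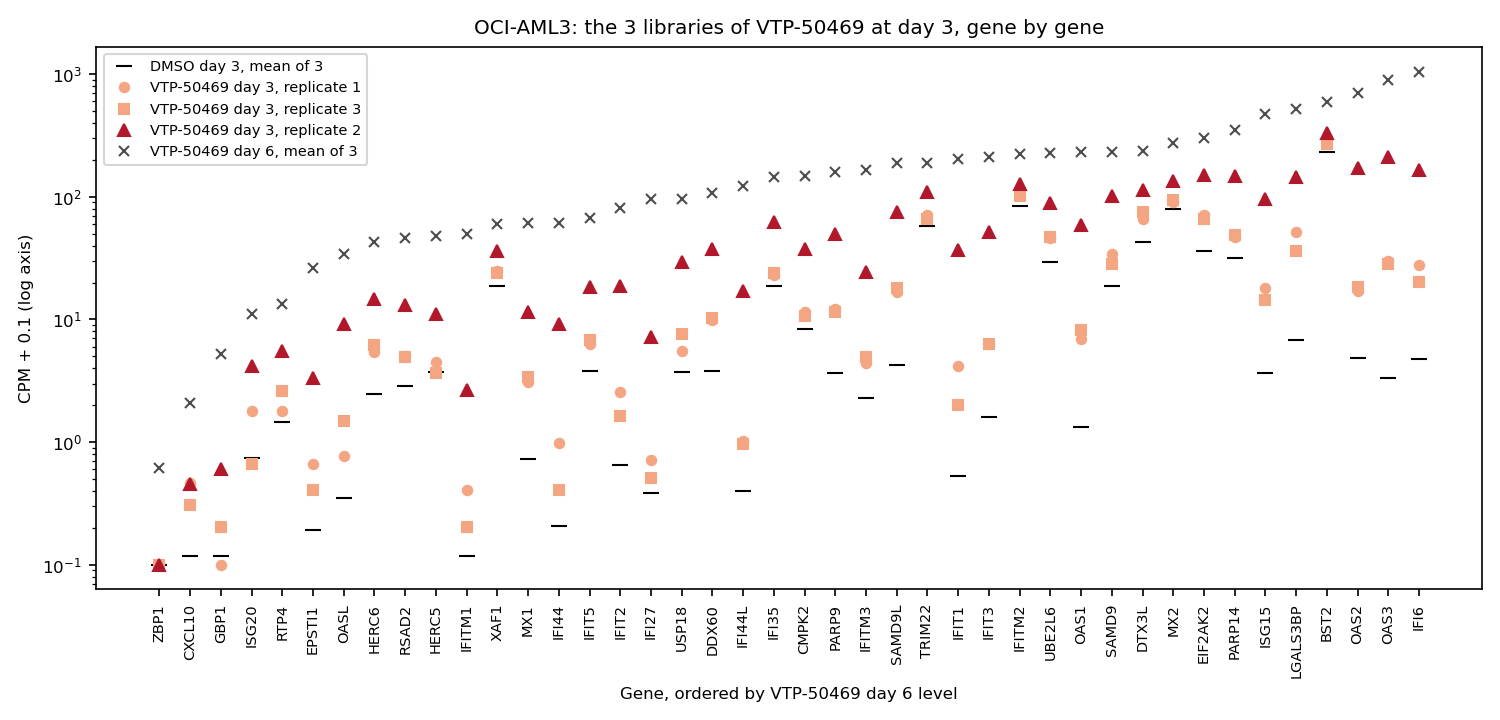
Level (CPM plus 0.1, log axis) of each interferon-stimulated gene in the 3 OCI-AML3 libraries of VTP-50469 at day 3, with the mean of DMSO day 3 (dashes) and of VTP-50469 day 6 (crosses), genes being ordered by the latter. Replicate 2 (triangles) is the highest of the 3 in 40 of 42 genes, a count without its share over all genes, and stays below day 6.

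Without replicate 2, 23 of these 35 members rose and 12 no longer passed, where 3.25% of all genes tested rose, and the median was 1.26. Those that still rose include OAS1 (2.59), MX1 (2.34), ISG15 (2.19) and SAMD9L (2.05), an antiviral relative of SAMD9. IFI44 (2.40, edgeR adjusted p 0.0589) and IFI44L (1.56) were among those lost. Fitted with all 3 replicates on the compared groups only, 6 of the 35 members then tested passed, beside 10.3% of all genes. From day 3 to day 6 with VTP-50469, 40 of 41 members rose and none fell (9.8% of all genes tested rose; median 2.76), led by IFITM1 (5.63), IFI27 (5.13), GBP1 (4.63) and IFI44L (4.29). Without replicate 2 the same 40 rose (12% of all genes tested rose; median 3.58), led by IFITM1 (7.87), IFI27 (7.52), IFI44L (7.08) and IFI44 (6.68). Fewer members passed from day 3 to day 6 when only the compared groups were fitted, as given in the closing section. DMSO of day 6 against day 3 gave 0 of 41 members higher and 0 lower by edgeR (0% and 0% of all genes tested), with 1 member at an unadjusted p under 0.05.

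For selumetinib alone in OCI-AML3 against DMSO day 3, the number of members past the test depended on the fit. By edgeR 5 of 41 rose and 1 fell (11.7% and 15.6% of all genes tested), the rises being near the share of all genes. Every selumetinib library lay above every DMSO library in 19 of 42 members and below in 3 (23.1% and 25% of all genes tested). OAS1 rose by 2.88 (SE 0.89), from 1.51, 1.25 and 0.947 CPM to 5.07, 10.9 and 11.3. SAMD9L rose by 1.89 (SE 0.54), RSAD2 by 1.78 (SE 0.29) and TRIM22, a nuclear E3 ligase, by 0.61 (SE 0.12), and SAMD9 rose 2.2-fold. XAF1 fell by 0.81 on the log2 scale (SE 0.15), from 17.2, 19.3 and 19.9 CPM to 12.6, 9.36 and 10.2. IFIT1, MX1, ISG15 and BST2 gave -0.30, 0.72, 0.84 and -0.14 and did not pass. Fitted on the compared groups only, 19 of the 33 members then tested passed in either direction, beside 42.8% of all genes. Of those 19, 18 were higher, and the share of all genes higher in that fit is not given. In the fit of all groups, 3 members passed without DMSO replicate 1 or 3 or selumetinib replicate 2 or 3.

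With the combination at day 3 in OCI-AML3, 27 of 41 members rose against DMSO and none fell (22.3% of all genes tested rose), with a median log2 fold change of 1.63. OAS1 led with a log2 rise of 5.0 (SE 0.8), with 37.9, 42.1 and 39.9 CPM, followed by IFIT1 (3.96, SE 1.19), IFIT2 (3.91, SE 0.87) and SAMD9L (3.69, SE 0.52). Of the RNA-binding proteins and enzymes 11 of 13 rose, and of the membrane restriction factors 0 of 4 passed. IFITM3 was at 7.91, 5.23 and 6.95 CPM against 1.51, 3.59 and 1.45 in DMSO. IFITM2 also lay above DMSO in each library, while BST2 overlapped it. IFITM1 was at 0 CPM in all 3 libraries, with 1 count in DMSO, too few to compare. Against VTP-50469 at day 3, 1 member rose and 13 fell (18.2% and 24% of all genes tested). RSAD2 rose by 1.01 (SE 0.26), from 4.9, 13.1 and 4.85 CPM to 13.6, 14.5 and 18.1. The largest falls were those of IFITM1 (0 counts against 59, at least 19.5-fold lower by the floor of 3 counts over the group), IFI44 (-4.27, SE 1.16), IFI44L (-2.45, SE 0.92) and IFI27 (-2.31, SE 0.88). The falls mostly needed replicate 2 of VTP-50469. Without it 17 members were higher and 3 lower (BST2, IFI44 and XAF1), beside 16.6% and 22.4% of all genes tested, and the median moved from -0.61 to 0.34. OAS1 (2.41), IFIT2 (2.05), RSAD2 (1.65) and SAMD9L (1.62) were then higher in the combination, while IFI44L, IFI27 and ISG15 moved to 0.34, 0.08 and 0.00.

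The interaction at day 3, by which the combination differs from the sum of the single-drug log2 changes, passed in 2 of 41 members in OCI-AML3, both lower (6.27% of all genes tested were lower). They were OASL (-4.50, SE 1.12, edgeR adjusted p 0.0176) and TRIM22 (-0.75, SE 0.18, edgeR adjusted p 0.0072). Without VTP-50469 replicate 2 both stayed lower (OASL -2.66, TRIM22 -0.49), while IFIT2 (1.75, -0.15 with it) and PARP14 (0.41, -0.35 with it) passed as higher, beside 3.24% of all genes higher and 6.99% lower. The uncertain duration of selumetinib bears on this comparison.

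Genes of the interferon ligands gave almost no counts. Of 22 interferon genes 7 had any count in OCI-AML3, 48 in all over 21 libraries, and 3 in NOMO1, 9 in all. IFNB1, the interferon beta gene, had 6 counts with VTP-50469 at day 3, 9 at day 6 and 2 in DMSO day 6. These counts were too low to test.

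Upstream and parallel genes of the pathway, from lists drawn up by role, differed in OCI-AML3 in whether they rose with VTP-50469 at day 6. Of all genes tested, 18.8% rose and 16% fell. Of the receptors and their kinases 2 of 8 tested rose and none fell: IFNAR1 (0.52, SE 0.08) and JAK2 (0.81, SE 0.14). That count was not far from the share of all genes, and the median log2 fold change of the list was 0.14. Of the pathway's transcription factors 7 of 11 rose and 1 fell. IRF7, an amplifier of interferon genes, had means of 14 CPM in DMSO libraries, 131 with VTP-50469 and 63 with the combination. IRF8, a myeloid lineage factor, was the one that fell, from 1210 to 284 CPM, with 702 in the combination. Among nucleic acid sensors and adaptors 11 of 16 rose and 1 fell, including DDX58 (RIG-I), with means of 10.7, 158 and 53.3 CPM, and IFIH1 (MDA5), with 7.21, 120 and 61.2. Of 20 tested genes of antigen presentation and chemokines 18 rose and none fell. CXCL11, a relative of CXCL10, had 0.91, 110 and 3.39 CPM, while B2M, the light chain of class I molecules, had 548, 1510 and 1550. Of 7 feedback inhibitors 4 rose and 2 fell. In the combination against VTP-50469 alone, 1 of 8 receptors and kinases, 3 of 11 factors, 7 of 16 sensors, 1 of 7 inhibitors and 8 of 20 antigen-presentation genes were lower, and 3, 2, 3, 2 and 4 of them were higher. Of all genes tested 24.6% were lower and 16.7% higher.

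Some markers of other cells moved in OCI-AML3 as well. The sum of 8 plasmacytoid dendritic cell markers was 60.4 to 68.3 CPM in DMSO day 6, 240 to 258 with VTP-50469 and 155 to 172 with the combination, carried by IRF7 and TCF4, while LILRA4 was at 0 and CLEC4C at a mean of 0.039 CPM with VTP-50469. The 10 epithelial and stromal markers summed to 507 to 526, 776 to 787 and 1000 to 1170 CPM, mostly VIM, with COL1A2 at means of 0.322, 55.5 and 4.84. The 8 B cell markers gave 6.76 to 8.29, 25.1 to 27.5 and 25.6 to 42.5 CPM, mostly EBF1. The part of these genes in the interferon result was not tested.

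In NOMO1 the same treatments gave changes in both directions. With VTP-50469 at day 6, 9 of 38 tested members rose and 8 fell (23.7% and 25.1% of all genes tested), with a median log2 fold change of 0.06. These counts were near the shares of all genes. OAS3 rose by 3.51 (SE 0.55), from 0.347, 0.331 and 0.576 CPM to 5.74, 4.46 and 4.22, and OAS1 by 2.65 (SE 0.65), from 0.13, 0.43 and 0.0768 to 1.49, 1.41 and 1.33. EPSTI1 rose by 1.89 (SE 0.71) and IFITM3 by 1.62 (SE 0.29). OASL (-2.47, SE 0.68), CXCL10 (-1.96, SE 0.53), IFIT1 (-1.83, SE 0.76) and USP18 (-1.63, SE 0.44) fell. CXCL10 was at 14.5, 18 and 12.3 CPM in DMSO day 6 and at 5.07, 3.45 and 2.89 with VTP-50469. Neither BST2 (226, 217 and 246 CPM in DMSO libraries, 236, 235 and 223 with VTP-50469) nor ISG15 (8.06, 8.27 and 8.3 against 7.76, 7.98 and 5.46) passed. IFI44, IFI44L, OAS2 and ZBP1 were too low to test in NOMO1, and IFI44L had 0 counts in every library.

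With the combination at day 6 in NOMO1, 14 of 38 rose and 6 fell (27.3% and 28.2% of all genes tested). OAS1 (4.35, SE 0.66), OAS3 (3.89, SE 0.55), LGALS3BP (3.33, SE 1.01) and EPSTI1 (2.37, SE 0.72) led the rises, LGALS3BP from at most 0.173 to at most 1.39 CPM. CXCL10 (-3.15, SE 0.60), IFITM1 (-1.85, SE 0.20), DDX60 (-1.32, SE 0.19) and EIF2AK2 (-0.67, SE 0.11) led the falls. IFITM1 went from 6.54, 6.82 and 6.68 CPM to 1.6, 2.29 and 1.65. Against VTP-50469 alone, 7 rose and 3 fell at day 6 (12.4% and 15.2% of all genes tested), the falls being IFITM1 (-2.26), IFITM3 (-1.18) and IFITM2 (-0.62), and 8 rose and 4 fell at day 3 (15.9% and 19.2%). Without replicate 1 of VTP-50469 day 3 the day 3 counts were 7 and 4 (16.7% and 19.4%).

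At day 3 in NOMO1, VTP-50469 against DMSO gave 8 of 38 higher and 7 lower (29.7% and 22.7% of all genes tested), selumetinib 15 and 7 (28.9% and 25.2%) and the combination 13 and 10 (31.1% and 27.5%). ISG15, at 22.5, 20.9 and 19.4 CPM in DMSO libraries, was at 3.8, 5.35 and 5.82 with VTP-50469 (-2.06, SE 0.22) and 3.4, 5.51 and 3.52 with the combination (-2.33, SE 0.22). CXCL10 fell with the combination from 35.4, 37.9 and 29.6 CPM to 1.34, 2.55 and 1.09 (-4.36, SE 0.60). In VTP-50469 day 3 replicate 1, CXCL10 was at 31.4 CPM beside 6.36 and 5.31, and BST2 at 144 beside 244 and 262. Without that library 7 members were higher and 8 lower (28.5% and 20.9% of all genes tested), 6 and 7 of them as with it. EPSTI1 (2.54 to 1.72) and OAS3 (1.99 to 1.26) no longer passed, and CXCL10 moved from -1.27 to -2.55. RSAD2 rose with the combination by 2.58 (SE 0.48) and with selumetinib by 1.83 (SE 0.49). The DMSO groups themselves differed, with 11 members higher and 7 lower at day 6 than at day 3 (28.8% and 22.3%), ISG15 by -1.35 and IFITM2 by -1.11. Against DMSO of day 6 in place of day 3, 0 of the 8 higher calls and 4 of the 7 lower calls of VTP-50469 were made again, 7 and 0 of those of selumetinib, and 6 and 6 of those of the combination. A pair of calls passed in the other direction: EIF2AK2 with selumetinib went from 0.70 to -0.32 and IFITM2 with the combination from -0.61 to 0.50. VTP-50469 from day 3 to day 6 gave 9 higher and 2 lower (20.8% and 21.3%), and the interaction at day 3 gave 5 higher and 6 lower (15.3% and 21.7%). Without VTP-50469 day 3 replicate 1 these counts were 11 and 3 (21% and 21.5%) and 5 and 5 (15.1% and 22.5%). With DMSO of day 6 in the interaction, 0 of the 5 higher and 1 of the 6 lower calls were made again, and IFITM2 passed in the other direction (0.35 to -0.76).

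The response to VTP-50469 at day 6 differed between the lines in 37 of 41 members, each with the smaller log2 change in NOMO1, where 16.8% of all genes tested had a smaller one. The median difference, NOMO1 minus OCI-AML3, was -4.71, or -4.47 over the 36 members with more than 3 counts in each group. The fitted differences were among the largest for IFIT1 (-10.84, SE 1.54, edgeR adjusted p 1.36e-06) and IFI27 (-9.93, SE 1.71). CXCL10 and IFI44 also ranked there, but a group had 3 counts or fewer and no size is given. TRIM22 (-0.26), LGALS3BP (-4.76), OAS2 and IFI44L did not pass. For the combination at day 6, 30 of 41 had the smaller change in NOMO1 and 1, TRIM22 (0.74, SE 0.26), the larger (16.3% and 18.6% of all genes tested), with a median of -2.73. In untreated levels, DMSO day 6 of NOMO1 against OCI-AML3, 15 members were higher and 10 lower (32.7% and 28.6%). TRIM22 (-3.46, SE 0.20) and LGALS3BP (-5.88, SE 0.80) were lower in NOMO1, and IFIT2 was higher (2.95, SE 1.04). The lines differ in more than the labelled genotype, and each genotype is represented by 1 line, so line and genotype cannot be told apart.

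**Figure D5:**
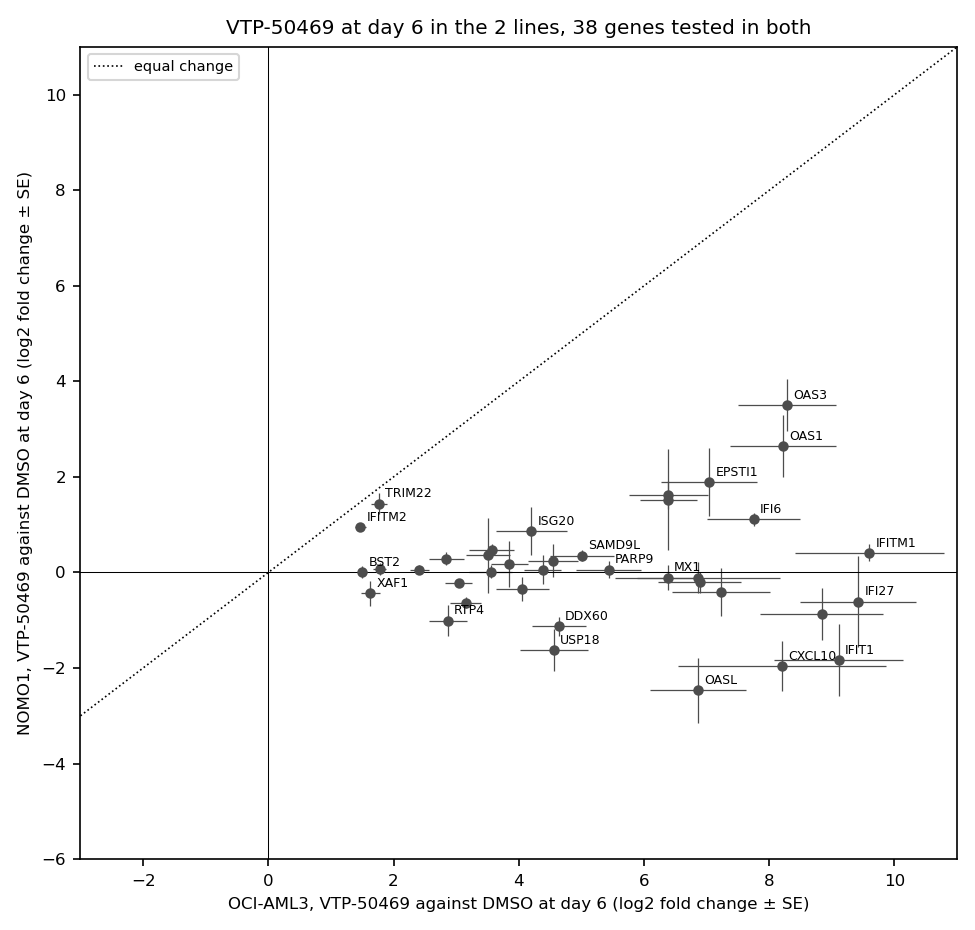
Log2 fold change with SE of each interferon-stimulated gene with VTP-50469 against DMSO at day 6, OCI-AML3 on the horizontal axis and NOMO1 on the vertical axis, with a dotted line of equal change; genes away from the crowded middle are named. All 38 genes tested in both lines lie below that line.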

How the data were processed

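Polyadenylated RNA was sequenced as unstranded paired-end libraries, per the labels' protocols. The file the authors deposited holds unscaled whole read counts for each gene. The submitters' processing notes name hg38, STAR 2.11a, Subread 2.0.6 with featureCounts, DESeq2 1.44.0, FastQC 0.11.9 and MultiQC 1.14. Without strand, counts of genes overlapping on opposite strands cannot be told apart. Not used were 3 columns whose names match no labelled library and 1 gene with an empty cell. Of these columns, the one named for selumetinib at day 6, replicate 1, in OCI-AML3 was compared with the replicate 1 column used here. The 2 were equal in all 58870 rows. The labels spell the menin inhibitor's number in more than one way; the series description's form is used.

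The members, the pathway and marker lists and the tests were chosen with earlier results of these data known. Each line was fitted in edgeR 4.0.16 (R 4.3.3) with filterByExpr, trimmed mean of M values scaling and robust quasi-likelihood, leaving 16384 genes in OCI-AML3 and 16561 in NOMO1; line differences came from 1 fit of 42 libraries (18707 genes). The tests were tried on simulated data. Genes named are 22 members followed by library, the 4 largest called rises and falls per comparison, and called pathway genes; some named were chosen after their values were seen, and 1 pathway gene is not reported here. Where a group had 0 counts, its fold is bounded by setting that group to 3 counts; where it had 1 to 3, the ratio has an exact binomial interval (95%). Both cover counting error only. Marker levels use unscaled totals. Same-numbered libraries correlated at -0.0889 to 0.0411 in OCI-AML3 and -0.0756 to 0.0494 in NOMO1 after removal of group means, so replicates were not paired. Positions are from GENCODE 29 (58595 genes matched, 42 of 42 members), promoters from RefSeq (34 of 42 members matched). Alternatives were DESeq2 1.42.0, relative log expression, library totals, other filters, the replicate block, only the compared groups, DMSO day 6 as control, no mitochondrial genes, and each library left out.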

Additional observations from a re-analysis of the deposited data

Results flagged for a closer look

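The log2 change with VTP-50469 at day 6 differed between OCI-AML3 and NOMO1 in 37 of 41 interferon-stimulated genes by the interaction term of 1 edgeR fit over both lines. All 37 had the smaller change in NOMO1, as did 16.8% of all genes tested. For the combination at day 6 the difference passed in 31 of 41, of which 30 were smaller in NOMO1 and 1, TRIM22, was larger (16.3% and 18.6% of all genes tested). The 2 comparisons share their DMSO libraries.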

How the results depend on the processing

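In OCI-AML3 at day 6, members called ran from 38 to 41 for VTP-50469 and from 29 to 41 for the combination against it over the alternatives run, each within 1.5 times the reported count. The counts that moved were those of day 3 and of NOMO1 against DMSO day 3. Fitted on the compared groups only, OCI-AML3 VTP-50469 day 3 went from 35 members to 6, VTP-50469 day 6 against day 3 from 40 to 21, selumetinib from 6 to 19, the combination against VTP-50469 at day 3 from 14 to 2, and NOMO1 VTP-50469 day 3 from 15 to 9. Of these fits, the share of all genes is given above for OCI-AML3 VTP-50469 day 3 and selumetinib only. The combination against VTP-50469 at day 3 gave 9 with library totals, 9 with no filter and 9 with the replicate block; replicate numbers do not pair the libraries, and the block moved no other count over 1.5 times. DESeq2 gave 6 for the OCI-AML3 interaction (2 by edgeR). With DMSO day 6 as the control in NOMO1, selumetinib went from 22 to 10, VTP-50469 day 3 from 15 to 8 and the interaction from 11 to 6; EIF2AK2 (selumetinib) turned to -0.32, IFITM2 (combination, day 3) to 0.50 and IFITM2 (interaction) to -0.76, the last also to -0.05 with library totals. With 1 library left out, OCI-AML3 counts ran from 23 to 39 for VTP-50469 day 3, 6 to 20 for the combination against it, 3 to 6 for selumetinib and 1 to 4 for the interaction. In the combination against VTP-50469 at day 3 the log2 changes then ran from -2.82 to 0.08 for IFI27, -2.97 to 0.34 for IFI44L, -1.82 to 0.00 for ISG15 and -0.34 to 2.05 for IFIT2, and in the interaction from -0.64 to 1.75 for IFIT2 (0.06 with the replicate block) and -0.64 to 0.41 for PARP14. The cause was not tested. Calls of IFI44 and IFI44L (VTP-50469 day 3) were lost without any 1 DMSO library or without VTP-50469 replicate 2. OAS1 and SAMD9 (selumetinib) were lost without any 1 DMSO library or selumetinib replicate 2 or 3. SAMD9L (selumetinib) was lost without DMSO replicate 1 or 3 or the same selumetinib replicates, and with DMSO day 6 as the control. The fall of CXCL10 in NOMO1 with VTP-50469 at day 3 did not pass in 9 alternatives, at -1.35 to -0.07. They include library totals and DMSO day 6 as the control. In NOMO1 with VTP-50469 at day 6, EPSTI1 was lost without any 1 library, and IFIT1 without DMSO replicate 2 or 3 or VTP-50469 replicate 2 or 3. OASL (interaction) was lost without DMSO day 3 replicate 1 or 2, IFIT2 (lines, DMSO) without OCI-AML3 replicate 2 or NOMO1 replicate 1, and TRIM22 (lines, combination) without any of 5 libraries. Unscaled library totals shifted the median of all genes by 0.33 to 0.39 in the NOMO1 comparisons with DMSO day 3. Members with a few counts per library, such as CXCL10, IFITM1 and ZBP1 in OCI-AML3, are limited by depth.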
